A study of Mus musculus with 4 samples.

Results

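The secreted cytokines that define and serve helper T cells were described across the 4 libraries of the series. The 10 genes were taken by name from the deposited table of 54532 genes: Il21, Il2, Il4, Il10, Il13, Il17a, Il17f, Ifng, Csf2 and Lif, and all 10 were found in it, 1 row each. The libraries are total RNA of wild-type mouse CD4+ T cells from the spleen, started as naive cells and kept for 3 days in a culture meant to yield T follicular helper (Tfh) cells. The 2 control libraries received no treatment, and the 2 DMF libraries were treated with dimethyl fumarate, an ester that activates the antioxidant factor Nrf2. Strain, age, dose and number of mice are not stated in the labels used here. The title of the series links DMF to Tfh differentiation, so the comparison asks what became of the cytokine transcripts, Il21 among them, under DMF.

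Levels are given as FPKM (fragments per kilobase, adjusted for library size) so that genes can be compared per length, and for low genes also as whole reads, which the FPKM and gene length give back. The libraries hold 15900118 to 17516953 reads in genes. Control replicate 2 stood apart: ribosomal protein genes took 14.33% of its reads and 6.50% to 7.09% in the other 3 libraries, and the SD of the log2 difference over genes was 0.74 between the controls and 0.32 between the DMF libraries. The labels do not say that replicates are separate cultures or animals, so the p-values rest on a spread between samples that could be purely technical. All 8 CD4 T cell markers fixed for these cells were expressed in every library and passed the level filter, a mean of at least 1 FPKM. Cd4 was at 128 and 105 FPKM in the controls and 103 and 100 FPKM in the DMF libraries. However, 6 of the 8 markers were lower under DMF with no overlap, where 26.8% of all genes that passed the filter were. Cd2 had the largest ratio of control to DMF among the 8, 3.24. It was at 135 and 246 FPKM in the controls and 57.9 and 59.4 FPKM in the DMF libraries.

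Activated helper T cells secrete cytokines by subset. Tfh cells are known for IL-21, which drives B cells in germinal centres, and for some IL-4. Th1 cells make interferon gamma, Th2 cells make IL-4 and IL-13, and Th17 cells make IL-17A and IL-17F, while IL-2 is the early growth factor of newly activated T cells. IL-10 damps immune responses, GM-CSF (encoded by Csf2) acts on myeloid cells, and LIF signals through gp130, the receptor chain that it shares with IL-6. Calcium-driven NFAT factors, bound with AP-1, switch on many of these genes after antigen contact.

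Several of the genes are neighbours. Il2 (chromosome 3, 37120523 to 37125959) and Il21 (chromosome 3, 37222759 to 37232636) lie 96.8 kb apart on the minus strand with no protein-coding gene between them in the deposited table (GRCm38). Il4 and Il13 lie 12.7 kb apart on chromosome 11, and Il17a and Il17f lie 42.6 kb apart on chromosome 1. The bases just before the start of Il21, Il2 and Il13 are shown because Il21 and Il2 are neighbours with unlike values across the groups, and Il13 had the largest ratio between the groups among the members that passed the level filter. They read 5′ to 3′ on the strand of the gene, from RefSeq (GRCm38.p6). Capitals mark GGAAA or its reverse complement TTTCC, the core of an NFAT site.
Il21 (chr3:37232637-37232886, minus strand): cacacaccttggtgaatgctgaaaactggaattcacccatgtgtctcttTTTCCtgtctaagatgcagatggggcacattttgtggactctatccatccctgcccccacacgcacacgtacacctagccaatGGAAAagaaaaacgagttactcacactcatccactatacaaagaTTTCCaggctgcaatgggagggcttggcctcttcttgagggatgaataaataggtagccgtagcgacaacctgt
Il2 (chr3:37125960-37126204, minus strand): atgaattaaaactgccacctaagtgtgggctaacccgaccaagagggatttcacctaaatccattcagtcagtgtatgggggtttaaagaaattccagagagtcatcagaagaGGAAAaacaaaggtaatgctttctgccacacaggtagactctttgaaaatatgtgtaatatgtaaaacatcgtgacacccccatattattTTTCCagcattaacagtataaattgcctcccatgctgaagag
Il13 (chr11:53634703-53634952, minus strand): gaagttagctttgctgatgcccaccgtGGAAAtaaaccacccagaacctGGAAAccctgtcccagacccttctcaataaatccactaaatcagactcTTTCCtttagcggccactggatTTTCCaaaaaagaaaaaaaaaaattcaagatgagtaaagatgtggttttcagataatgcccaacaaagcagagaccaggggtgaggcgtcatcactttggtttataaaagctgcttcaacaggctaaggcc
These stretches hold 3, 2 and 4 such cores. RefSeq entries were found for 9 of the 10 members, with a pair of starts for Il4, and Il10 had no entry. RefSeq starts can differ from the deposited ones. The stretches before the Il17f start (20784271 to 20784520) and 1 start of Il4 lie inside the deposited genes. The Csf2 stretch (54249900 to 54250149) does not adjoin the deposited gene. Over the 250 bases before the RefSeq start, 8 of these 10 entries hold GGAAA on either strand. So do 55.6% of 32851 promoters of the same length. The other motifs were searched on both strands too. The AP-1 motif TGANTCA was in 2 entries (Il17a and Lif; 6.7% of all promoters), the antioxidant response element core TGACNNNGC in 2 (Lif and 1 start of Il4; 10.2%), and the STAT motif TTCNNNGAA in 1 (Ifng; 7.0%). A match is a description of letters, not a site in use.

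In the DMF libraries 7 of the 10 cytokine transcripts, Il21, Lif, Csf2, Il17f, Il13, Il4 and Ifng, were lower than both controls, 0 were above both, and Il2, Il17a and Il10 overlapped between the groups. The size ran from a ratio of 1.59 for Lif to a complete lack of Ifng reads under DMF. None passed the test over all genes: limma, with Benjamini-Hochberg adjustment, called 0 of the 6 members and 0 of the 12166 genes tested (0.0%), while 1150 genes had an unadjusted p under 0.05 and limma's voom on the recovered reads called 6 genes, none of them a member. At an unadjusted p under 0.05, 4 of the 6 were lower (Il21, Il13, Il17f and Lif), against 6.31% of all tested genes. Both DMF libraries lay below both controls in 5 of the 6 tested members, where 26.8% of all tested genes did, and in 2 of the 4 members under the filter, where 18.1% of the low genes with at least 10 reads did. The median log2 fold change of the 6 was -0.99, against -0.01 over all tested genes. Il13 passed the level filter only through the controls, which fixed its direction, so the counts over the tested members are a description and support nothing by themselves. Without Il13, 3 of 5 were lower at an unadjusted p under 0.05, 4 of 5 lay below both controls, and the median was -0.75. In bulk RNA, fewer cells of a type and less RNA per cell cannot be told apart.

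**Figure D1:**
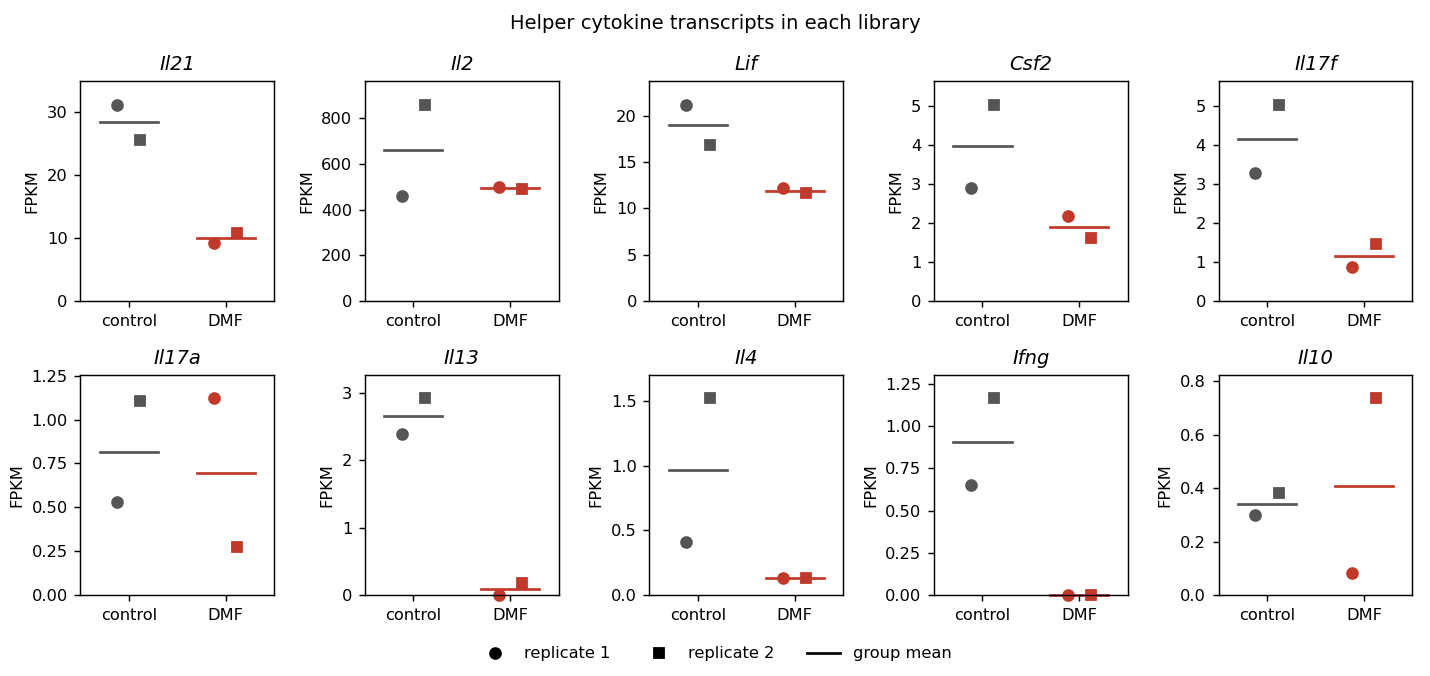
FPKM of each of the 10 cytokine genes (vertical axis, linear from 0) in the 2 control and 2 DMF libraries, with points for single libraries and a line for the group mean. Il21, Lif, Csf2, Il17f, Il13, Il4 and Ifng sit lower under DMF with no overlap, while Il2, Il17a and Il10 overlap.

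Il21, whose product drives B cells in germinal centres, was at 31.2 and 25.5 FPKM in control replicates 1 and 2 and at 9.17 and 10.8 FPKM in DMF replicates 1 and 2. These rest on 2904, 1871, 883 and 1058 reads, so counting error is small. The DMF libraries were both far below the controls, and each pair of libraries lay closer together than the gap between the groups. The mean was 28.4 ± 3.97 FPKM in control and 9.97 ± 1.13 FPKM in DMF (SD, n = 2), a ratio of 2.84. This gave a log2 fold change of -1.42 ± 0.20 (SE, limma adjusted p = 0.201). The call depends on the control libraries: the adjusted p was 0.0242 without control replicate 2, where 8.28% of all genes were called, and 0.00436 without control replicate 1, where 61.0% were. Over the 14 alternatives the limma adjusted p of Il21 ran from 0.00335 to 1.0. By rank of FPKM among all genes, Il21 stood at 1896 and 2709 in the controls and at 5617 and 5037 in the DMF libraries.

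Il2, its neighbour on chromosome 3, was the most abundant member, at 461 and 858 FPKM in the controls and 499 and 488 FPKM in the DMF libraries. Both DMF values lay between the 2 controls, so the groups overlapped, and Il2 stayed among the 76 genes of highest FPKM in every library. Its log2 fold change was -0.35 ± 0.44 (SE, limma adjusted p = 0.69), and its sign was not stable: it was 0.33 under quantile normalization, 0.0215 with the gene length trend removed and 0.10 without control replicate 2. Leaving out control replicate 1 gave -0.80. The ratio of Il21 to Il2 within a library does not depend on a single scale factor for that library. It does change with quantile normalization or removal of the length trend. There Il2 moved as given above, while Il21 had log2 fold changes of -1.38 and -1.48. The values below are from the deposited FPKM. Il21 FPKM came to 6.76% and 2.98% of Il2 FPKM in the controls and to 1.84% and 2.21% in the DMF libraries, so the groups did not overlap. The ratio was 2.41-fold lower under DMF, or 1.47-fold lower without control replicate 1 (two-sided exact permutation p = 0.333, the smallest that 2 against 2 libraries can give).

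Lif, a cytokine of the IL-6 family (chromosome 11, 4257557 to 4272514), was the third by level. It was at 21.2 and 16.8 FPKM in the controls and 12.2 and 11.6 FPKM in the DMF libraries, so the groups did not overlap but lay closer than for Il21. The mean was 19.0 ± 3.08 and 11.9 ± 0.397 FPKM (SD, n = 2), a log2 fold change of -0.62 ± 0.20 (SE, limma adjusted p = 0.489). The log2 fold change was -0.78 without control replicate 2 and -0.46 when replicate 1 was left out instead. Il21 and Lif, which have similar gene lengths of 5259 and 4350 bp, stood in opposite order in the groups. Il21 was at 147% and 152% of Lif in the controls and at 75.2% and 92.6% in the DMF libraries (two-sided exact permutation p = 0.333, again the smallest possible). Of 5 such within-library ratios computed, 4 had this p, and a design of this size cannot reach 0.05 before or after adjustment.

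Csf2 (chromosome 11, 54247271 to 54249667) was at 2.89 and 5.03 FPKM in the controls and 2.19 and 1.61 FPKM in the DMF libraries, from 41, 56, 32 and 24 reads. The groups did not overlap, though control replicate 1 and DMF replicate 1 were close. The log2 fold change was -0.75 ± 0.30 (SE, limma adjusted p = 0.541), -0.41 with the gene length trend removed, and -0.43 without control replicate 2. Without control replicate 1 the log2 fold change was -1.06. Il3, another myeloid growth factor 15.6 kb from Csf2 and singled out here for that place, had 17 and 35 control reads and only 3 reads per DMF library, and its groups did not overlap either.

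The type 2 cytokines were low in the controls and nearly lacking under DMF. Il13 (chromosome 11, 53631324 to 53634702), an effector of allergic and anti-worm responses, had 51 and 49 reads in the controls and 0 and 4 in the DMF libraries, or 2.39, 2.92, 0 and 0.178 FPKM. The 0 in DMF replicate 1 allows up to 3 reads, or 0.136 FPKM. Summed over each group, 100 reads against 4 gave a ratio of 29.2 (95% exact interval 11.1 to 109, counting error only). Its log2 fold change was -1.75 ± 0.24 (SE, limma adjusted p = 0.201), which the added pseudocount of 1 FPKM understates. When any 1 library of either group was dropped, the log2 fold change of Il13 stayed between -1.86 and -1.63.

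Il4 (chromosome 11, 53602982 to 53618669), which steers B cells to certain antibody classes, did not reach the level filter. It had 9 and 26 control reads and 3 reads per DMF library. Both DMF libraries were lower than both controls, but the controls were far apart, at 0.414 and 1.52 FPKM. The ratio of summed reads was 6.81 (95% exact interval 2.84 to 19.8, counting error only). The log2 ratio of mean FPKM was -2.87, and -1.65 without control replicate 2. Gata3, the lineage factor of Th2 cells, was at 4.99 and 3.99 FPKM in the controls and 3.32 and 2.60 FPKM in the DMF libraries (limma adjusted p = 0.554).

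Ifng (chromosome 10, 118441046 to 118445892), the macrophage-activating cytokine of Th1 cells, had 15 and 21 reads in control replicates 1 and 2 and none under DMF. With 0 reads in the DMF libraries, its level there was at least 7.25-fold lower, taking 3 reads in each library as the limit that a count of 0 allows. Tbx21, which encodes the Th1 factor T-bet, was at 3.85 and 5.08 FPKM in the controls and 3.27 and 3.72 FPKM in the DMF libraries (limma adjusted p = 0.579). Markers of CD8 T and NK cells, which also make interferon gamma, were lower in the same libraries: 7 of the 10 were below both controls and 0 above. Among all tested genes 26.8% were below both controls, and 18.1% of the low genes with at least 10 reads were. Of the 4 tested, Cd8a and Klrd1 passed the level filter only through the controls. Their summed level was 35.6 and 73.7 FPKM in the controls and 8.67 and 8.62 FPKM in the DMF libraries, and the NK cell receptors Ncr1 and Klrb1c had 0 reads in every library. The part of these cells in the Ifng result was not tested.

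The 2 Th17 cytokines differed in their pattern. Il17f (chromosome 1, 20777146 to 20790617) had 118 and 142 reads in the controls and 33 and 55 in the DMF libraries, or 3.29, 5.04, 0.892 and 1.46 FPKM. The groups were well apart, with a log2 fold change of -1.24 ± 0.28 (SE, limma adjusted p = 0.345) and a ratio of summed reads of 3.45 (95% exact interval 2.7 to 4.45, counting error only). Dropping 1 library at a time, from either group, kept the log2 fold change of Il17f between -1.49 and -0.99. Il17a (chromosome 1, 20730905 to 20734496) had 11 and 18 reads in the controls and 24 and 6 in the DMF libraries, with the DMF libraries holding both the highest and the lowest value. Its ratio of summed reads was 1.13 (95% exact interval 0.654 to 1.95), and at this depth a difference was not detectable. Its log2 ratio of mean FPKM was -0.23, with -1.57 without DMF replicate 1, 0.46 without DMF replicate 2 and 0.40 without control replicate 2. Whether Il17f and Il17a differed in their response was not tested.

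Gamma delta T cells are another known source of IL-17. The 5 markers fixed for them summed to 17.0 and 28.8 FPKM in the controls and 3.34 and 3.13 FPKM in the DMF libraries. Of the 5, the 4 tested lay below both controls, where 26.8% of all tested genes did. Sox13 overlapped (17 and 9 control reads, 12 and 28 DMF reads). Tcrg-C1 and Tcrg-C4 passed the level filter only through the controls. Tcrg-C1 had 42 reads in each control and 0 and 4 in the DMF libraries, and Tcrg-C4 had 68, 97, 10 and 1 reads. No marker of the list was at 0 in every library. The part of these cells in the Il17f result was not tested.

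Il10 (chromosome 1, 131019845 to 131024974), an anti-inflammatory cytokine, had 7 reads in each control and 2 and 18 in the DMF libraries. The DMF libraries lay on either side of the controls, and the ratio of summed reads was 0.818 (95% exact interval 0.382 to 1.7), so no difference was detectable at this depth. The log2 ratio of mean FPKM was 0.26, with 1.10 without DMF replicate 1 and -2.04 without DMF replicate 2. Il10ra, the chain that binds IL-10, was lower in the DMF libraries, at 0.594 and 0.658 FPKM against 3.26 and 2.65 FPKM in the controls (limma adjusted p = 0.244).

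**Figure D2:**
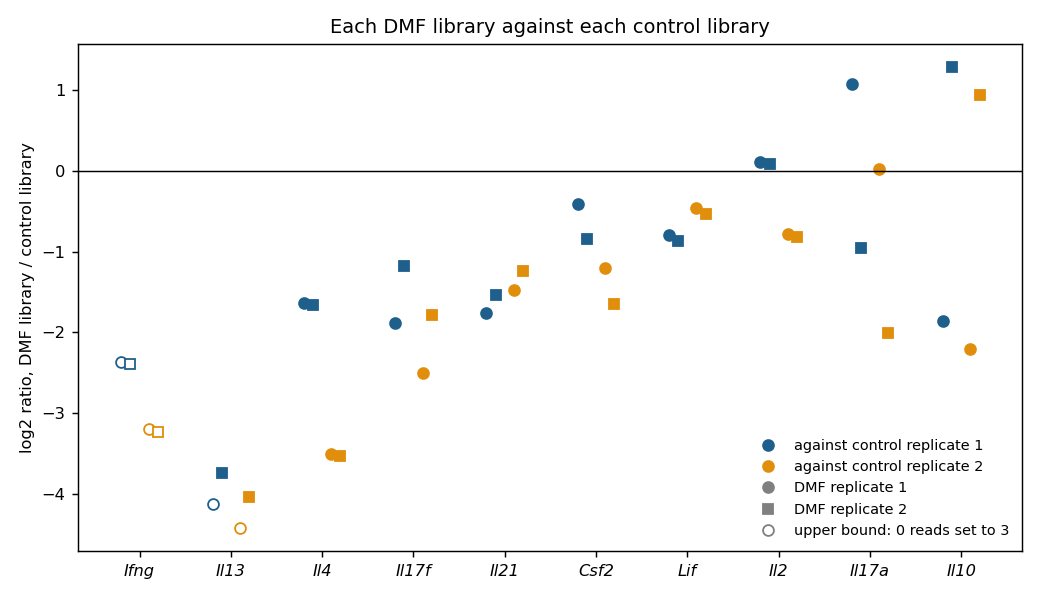
Log2 ratio of each DMF library to each control library (vertical axis) for the 10 cytokine genes, from reads scaled to the library size that the deposited FPKM imply. Colours give the control and shapes the DMF replicate, and open points are upper bounds in which 0 reads were set to 3 in that library. All 4 ratios are below 0 for Ifng, Il13, Il4, Il17f, Il21, Csf2 and Lif, and they lie on both sides of 0 for Il2, Il17a and Il10.

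In order of the control mean per length, Il2 stood first and Il21 second, followed by Lif, Il17f, Csf2, Il13, Il4, Ifng, Il17a and Il10. The controls of Il2, Il21 and Lif did not overlap with each other. Those of Il17f and Csf2 overlapped, as did those of Csf2 and Il13 and those of Il4, Ifng and Il17a. Under DMF the first 3 were Il2, Lif and Il21.

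Of 10034 other protein-coding genes tested, 3 lay nearest to Il21 in centred log2(FPKM + 1) over the 4 libraries. They were Hspa1b, Il18r1 and Il10ra, at root mean square distances of 0.07, 0.08 and 0.09. The added 1 FPKM shrinks differences of low genes. The ratio of control to DMF mean FPKM was 4.72 for Il10ra and 2.84 for Il21. Hspa1b, a stress-induced chaperone gene, was at 24.7 and 21.5 FPKM in the controls and 8.21 and 8.52 FPKM in the DMF libraries. It has a near-identical copy, Hspa1a, so its count is uncertain. Il18r1, a receptor chain for IL-18, was at 5.13 and 3.37 FPKM in the controls and at 0.896 and 1.19 FPKM under DMF. The likeness rests on 4 libraries in 2 groups and is a description.

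Other cytokine genes were mostly lower as well. Of 20 fixed, 11 were tested, 0 passed after adjustment, 7 were below both controls and 0 above both. Of all tested genes, 26.8% were below both and 26.4% above both. The median log2 fold change of the 11 was -0.89. Il3 passed the level filter only through the controls, which fixed its direction. Over all 20, 10 were below both and 1 above both, Il12a, which had 0 reads in each control and 3 and 9 reads under DMF. Osm, which encodes oncostatin M, a relative of LIF, was at 17.3 and 23.3 FPKM in the controls and 3.85 and 3.44 FPKM in the DMF libraries (limma adjusted p = 0.167). Spp1, which encodes osteopontin, was at 181 and 253 FPKM in the controls and 90.9 and 86.2 FPKM in the DMF libraries (adjusted p = 0.328). Tnf overlapped between the groups, like Il2, at 39.5 and 61.5 FPKM in the controls and 52.7 and 45.0 FPKM in the DMF libraries. Tnf was named after its values were seen, as a second cytokine made early after activation.

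Receptor chains for the 10 cytokines were mostly lower too. Of 16 fixed, 12 were tested, 0 passed, 10 were below both controls and 1, Il6st, was above both. The shares over all tested genes were 26.8% below both and 26.4% above both. The median of the 12 was -0.61, and over all 16 the counts were 11 and 1. Il10ra passed the level filter only through the controls. Ifngr1, the ligand-binding chain for interferon gamma, was at 20.3 and 24.7 FPKM in the controls and 7.50 and 5.29 FPKM in the DMF libraries (limma adjusted p = 0.201). Il21r was at 153 and 135 FPKM in the controls and 110 and 111 FPKM in the DMF libraries, a log2 fold change of -0.38 beside -1.42 for its ligand, a difference that was not tested. Il2ra, the high-affinity IL-2 chain, was at 170 and 140 FPKM in the controls and 97.1 and 94.2 FPKM in the DMF libraries. Il2rb, the signalling chain that IL-2 shares with IL-15, was at 84.5, 80.4, 39.3 and 37.6 FPKM in the same order. Il6st, which encodes gp130, was at 5.19 and 2.15 FPKM in the controls and 5.37 and 5.44 FPKM in the DMF libraries (adjusted p = 0.567). Csf2ra overlapped between the groups.

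Transcription factors that bind cytokine genes lay in both directions. Of 28 fixed, 25 were tested, 0 passed, 12 were below both controls and 8 above both. Among all tested genes, 26.8% were below both and 26.4% above both. The median of the 25 was -0.10, and over all 28 the counts were 13 and 9. Maf, which binds the Il21 and Il4 promoters, was higher under DMF, at 8.71 and 10.6 FPKM against 4.61 and 2.75 FPKM in the controls (limma adjusted p = 0.331). Nfatc1 was also higher, at 66.9 and 64.7 FPKM against 45.2 and 28.8 FPKM, and Irf4, a factor needed for Il21, was at 151 and 148 FPKM against 123 and 85.9 FPKM. Ahr, a ligand-activated factor of Th17 cells, was at 5.54 and 6.05 FPKM against 0.97 and 0.512 FPKM (adjusted p = 0.188). It passed the level filter only through the DMF libraries. Lower under DMF were Stat4, which carries the IL-12 signal to Ifng, at 2.98 and 3.42 FPKM against 7.87 and 7.84 FPKM, and Runx3, which is tied to cytotoxic and Th1 fates and works with T-bet at Ifng, at 6.39 and 6.54 FPKM against 17.9 and 13.4 FPKM. Batf, the AP-1 factor that works with Irf4 at Il21, was at 53.2 and 56.2 FPKM under DMF against 68.4 and 134 FPKM.

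Genes that these cytokines induce in responding cells were lower under DMF, with no overlap between the groups, in 9 of 9 tested. Over all tested genes, 26.8% were lower in this way. Socs2 passed the level filter only through the controls, which fixed its direction. The median of the 9 was -1.77, and 0 passed. The tenth, Ciita, the interferon-gamma-induced switch of MHC class II genes, was under the level filter and went the other way, from 49 and 33 control reads to 158 and 126 DMF reads. This list was known from earlier results on these data to be lower, so its count is not independent. Socs3, the brake induced through STAT3 by IL-21 and by gp130 signals, was at 68.0 and 86.3 FPKM in the controls and 9.66 and 9.69 FPKM in the DMF libraries (limma adjusted p = 0.128). Socs2, induced through STAT5, was at 9.03, 9.96, 0.522 and 0.629 FPKM in the same order.

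**Figure D3:**
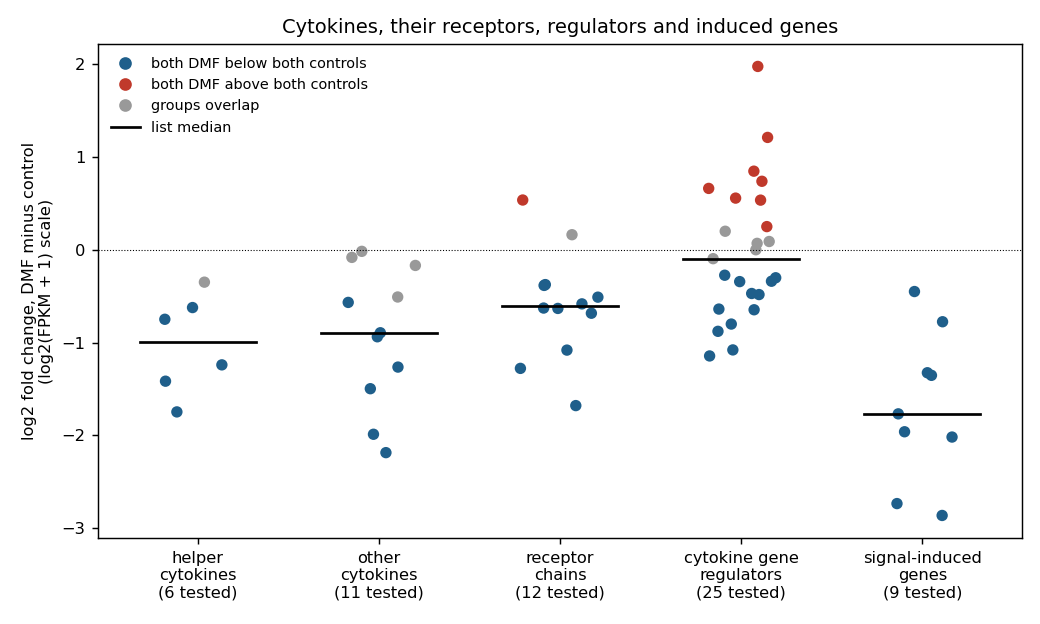
Log2 fold change, DMF minus control, on the log2(FPKM + 1) scale (vertical axis) for the tested genes of 5 lists, with 1 point a gene, a line at the list median, and colours for genes whose DMF libraries both lie below or above both controls. The medians are -0.99 for the helper cytokines, -0.89 for other cytokines, -0.61 for receptor chains, -0.10 for regulators and -1.77 for signal-induced genes.

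Other cells that could be in the cultures were followed with fixed markers. B cell markers, of which 7 of 8 were tested, were above both controls in 6 and below in 1, Ighm. Of all tested genes, 26.4% were above both and 26.8% below both. Pax5 and Blk passed the level filter only through the DMF libraries, which fixed their direction. The 8 markers summed to 81.8 and 121 FPKM in the controls and 89.3 and 87.9 FPKM in the DMF libraries. Ighm carries this sum, and the other 7 markers summed to 10.3 and 13.9 FPKM in the controls and 26.7 and 25.5 FPKM in the DMF libraries. Markers of myeloid and dendritic cells, which can make Il10, summed to 9.37 and 13.0 FPKM in the controls and 8.93 and 7.50 FPKM in the DMF libraries, with Cd209a at 0 in all. Of the 5 markers of mast cells and basophils, which make Il4 and Il13, 0 were tested, Mcpt8 and Prss34 had 0 reads in every library, and the list held 11 reads in control replicate 2 and 0 in the others. Of the 8 CD4 T cell markers, 6 were below both controls and 0 above. Cd2, Cd3d and Cd3g had ratios of 3.24, 2.08 and 1.90 between control and DMF. Lck, Cd4 and Cd3e had smaller ratios of 1.30, 1.14 and 1.13, and Cd28 overlapped, with a ratio of 0.836. Control replicate 2 weighs on the Cd3d ratio, with 144 and 338 FPKM in the controls and 115 and 117 FPKM under DMF. The 8 markers summed to 1438 and 1946 FPKM in the controls and 1315 and 1317 FPKM in the DMF libraries. This sum is carried by Cd5, which overlapped between the groups at 636 and 757 FPKM and 672 and 685 FPKM. The part of these differences in T cell markers, and of other cells, in the Il21, Lif and Csf2 results was not tested.

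**Figure D4:**
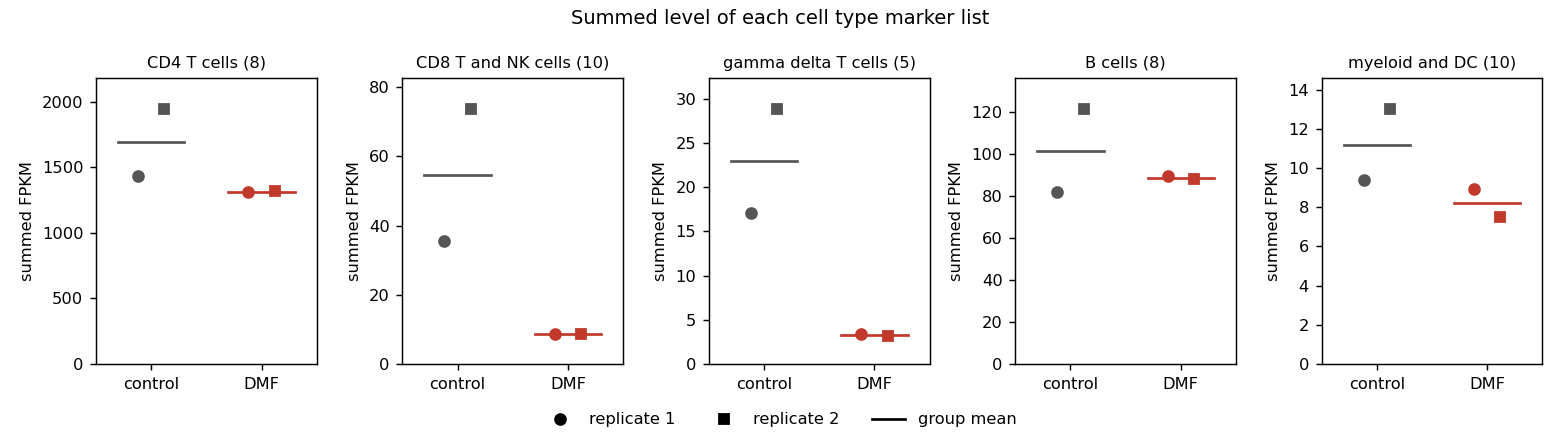
Summed FPKM of 5 marker lists (vertical axes, linear from 0; number of genes in brackets) in each library, with points for libraries and a line for the group mean. CD8 T and NK markers, a sum carried mostly by Nkg7, are at 35.6 and 73.7 FPKM in the controls and 8.67 and 8.62 FPKM under DMF. Gamma delta T cell markers are at 17.0 and 28.8 FPKM in the controls and at 3.34 and 3.13 FPKM under DMF. CD4 T cell markers, a sum carried by Cd5, lie between 1315 and 1946 FPKM in all 4 libraries.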

How the data were processed

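The authors deposited 1 table of FPKM values with gene names, GRCm38-like coordinates and gene lengths, 1 column for each library, per the file headers. Sequencing was on an Illumina HiSeq2000, per the labels' protocols. The submitters' processing notes name edgeR, with no role, and the build mm8. Coordinates equal those of GENCODE M21 (GRCm38) for all 10 members and for 98.26% of the 54409 identifiers shared, and are given as GRCm38. No source used here names the aligner or counter.

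FPKM was multiplied by gene length and divided by the value of 1 read, fitted for each library. This returned whole reads for 100% of values, within 0.01. Control libraries hold 17171199 and 15900118 reads, and DMF libraries 17134385 and 17516953. The library sizes implied by the FPKM are 1.03, 0.876, 1.07 and 1.07 times these sums. A count of 0 reads allows up to 3 reads, and intervals are 95% exact (Poisson or Clopper-Pearson), which cover counting error alone.

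DMF was compared with control by limma 3.58.1 in R 4.3.3 (lmFit, eBayes with a trend, two-sided, no covariate) on log2(FPKM + 1). Tested were the 12166 genes averaging at least 1 FPKM (Benjamini-Hochberg adjustment, threshold 0.05). The scripts were tested on simulated data in which all libraries had the same spread. The controls and DMF libraries here differ in spread, so that test says nothing on how reliable the calls are. Alternatives tried were pseudocounts (0.1 and 0.5), no filter, a mean of at least 5 FPKM, trimmed mean scaling, quantile normalization, removal of a gene length trend (loess, span 0.3), limma's voom on the recovered reads of genes with at least 10, eBayes without a trend, a replicate block, and leaving out each library. The chi-square per degree of freedom between the reads of 2 libraries, where counting error alone gives about 1, was 147 for the controls and 3.61 for the DMF libraries. Neither pair was merged as 1 library deposited again, which does not show separate cultures.

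The members and lists were chosen with earlier results of these data known. Named were all members, the 2 genes with the smallest p in each direction of each fixed list, receptor chains and transcription factors for their role beside a member, and the 3 genes nearest to Il21. Upstream sequences are from RefSeq (GRCm38.p6). Some genes that this rule takes are not reported here.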

Additional observations from a re-analysis of the deposited data

How the results depend on the processing

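The same 7 members lay below both controls under trimmed mean scaling, quantile normalization, removal of the gene length trend and scaling to summed reads. With each library left out, 7 to 8 members did. Dropping a library cannot take any of the 7 out of this count, so that setting does not test them. These settings were chosen after the data were seen. Calls were less stable. Over all genes, 3 were called with the gene length trend removed, 6 with limma's voom and 552 with the replicate block, and 6 to 7420 with each library left out, where a lone library is assumed to vary like the other group. Of the members, 3 were called with the replicate block and 0 to 6 with each library left out. In the block, Il21, Il13 and Il17f passed at limma adjusted p of 0.00335, 0.000502 and 0.0155 with log2 fold changes of -1.42, -1.75 and -1.24. Their SEs were larger in the block (0.36, 0.39 and 0.36) than without it (0.20, 0.24 and 0.28). The smaller p-values came from eBayes treating the spread shared over genes as exactly known there, not from a tighter spread. Nothing in the labels ties same-numbered libraries to a shared source, and the deviations of same-numbered libraries correlated at -0.02 over genes. With each library left out, the log2 fold changes ran from -1.55 to -1.28 for Il21, from -1.86 to -1.63 for Il13, from -1.49 to -0.99 for Il17f, from -1.06 to -0.43 for Csf2, from -0.78 to -0.46 for Lif and from -0.80 to 0.10 for Il2. The sign of Il2 turned under quantile normalization (0.33) and with the length trend removed (0.0215), and without control replicate 2 (0.10). Il17a and Il10 rest on few reads: with each library left out, their log2 ratios of mean FPKM ran from -1.57 to 0.46 and from -2.04 to 1.10, so both signs turned. Removing the gene length trend made some differences smaller. Il13, Il17f and Csf2 were then at -1.38, -0.95 and -0.41, against -1.75, -1.24 and -0.75 in the main fit. Il21 and Lif were at -1.48 and -0.61, against -1.42 and -0.62. Under a mean of at least 5 FPKM, Csf2, Il17f and Il13 were not tested.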
